A study of Mus musculus with 58 samples.

Results

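The genes described here are 9 markers of microglia: Cx3cr1, P2ry12, Tmem119, Csf1r, C1qa, C1qb, C1qc, Aif1 and Trem2. They were chosen by name, with earlier results of these data known, and all 9 were listed in each of the 6 count tables of the study, among 54532 genes in the 2 RNA-seq tables and 18411 genes in the 4 tables of lysate RNA and ribosome footprints. The striatum of heterozygous mutant (del/+) mice and of wild-type (wt) mice was profiled in a pair of mouse lines. The 3g line carried small CRISPR/Cas9 changes in Taok2, Sez6l2 and Mvp, meant to give each a premature stop codon. The paper names this a hemi-deletion, although the genes were not removed. The 16p11.2 line carried a heterozygous deletion of the mouse region that corresponds to human 16p11.2. Strain was given as B6129S in the labels, whereas the paper bred C57BL/6J males for the zygotes of the 3g line. The paper used littermates of 10 to 14 weeks of age unless it says otherwise. It does not describe the animals of the lysate RNA and footprint libraries.

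RNA-seq covered 32 libraries, with 4 in each group: wt and 3g del/+ males and females of the 3g line, and wt and 16p11.2 del/+ males and females of the 16p11.2 line. A second experiment used males only and made a library of ribosome footprints and a library of RNA in parallel from the same lysate of each animal. It held 3 wt and 3 del/+ mice of the 3g line, and 4 wt and 3 del/+ mice of the 16p11.2 line, giving 13 lysate RNA and 13 footprint libraries. No library carried a drug treatment. The wt mice of each line were the controls of that line alone, and each line had its own count table, so line, cohort and table cannot be told apart in any comparison between lines.

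Microglia are the resident macrophages of the brain parenchyma. They enter the brain early in development, renew themselves there and depend on signalling through the CSF1 receptor. In the healthy brain they survey the tissue with motile processes, clear debris and can prune synapses, in which the complement protein C1q takes part. Several of the 9 genes, among them Csf1r, Cx3cr1, the C1q genes, Aif1 and Trem2, are also used by macrophages at the borders of the brain, whereas P2ry12 and Tmem119 are the more selective microglial markers.

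RNA-seq libraries held 11711099 to 65529807 counts in the 3g line and 26592767 to 41300015 in the 16p11.2 line. Within the 3g line, wt libraries held 39301819 to 65529807 counts and del/+ libraries 11711099 to 39716416. Depth thus largely went with genotype there, and its part in the 3g results was not tested. Lysate RNA libraries held 15102576 to 19122488 counts, and footprint libraries only 342052 to 678130. A set of 3 libraries stood apart. On a scale over 11385 genes, set so that the mean 3g wt female library lay at 0 and the mean 16p11.2 wt female library at 1, 15 of the 16 libraries from 3g mice fell within -0.081 to 0.164. The exception was the library labelled 3g wt male 17, at 0.888. Among 16p11.2 libraries, the library labelled del/+ male 4 fell at 0.203, del/+ female 1 at 0.874, and the other 14 within 0.844 to 1.21. In the library labelled del/+ female 1 of the 16p11.2 line, Xist was at 0.463 CPM (read counts scaled to a common library size) and Ddx3y at 38.6 CPM, where the other 3 libraries of its group had Xist at 324.5 to 919.4 CPM and Ddx3y at 0. By these values 3g wt male 17 lay with the 16p11.2 libraries, 16p11.2 del/+ male 4 lay nearest to the 3g libraries, and 16p11.2 del/+ female 1 had Xist and Ddx3y at the levels of males, against its label. The labels were kept, and whether they were exchanged was not tested. For the C1q genes, the calls between lines and the correlations in RNA-seq, values without these libraries are given as well. In 16p11.2 del/+ mice of both sexes Taok2, Sez6l2 and Mvp fell by 1.02, 1.21 and 1.05 on the log2 scale. In 3g del/+ mice of both sexes Sez6l2 fell by 0.53. The log2 difference of Mvp there was -0.43 (adjusted p = 0.155, edgeR) and that of Taok2 was -0.03 (adjusted p = 0.939, edgeR). In 3g females, fitted without any male library, the differences were -0.49 for Sez6l2, -0.48 for Mvp and -0.02 for Taok2. The paper reports from qPCR that striatal mRNA of every targeted gene was lower in mutants of this line.

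Levels are given as CPM after normalisation by the trimmed mean of M values (TMM) over all libraries of an assay, and effects as log2 differences with their standard error (SE) from edgeR's quasi-likelihood test. A gene was called where its Benjamini-Hochberg adjusted p, over all genes tested, was under 0.05. Labels treat each RNA-seq library as its own mouse, whereas footprint and lysate RNA libraries are paired by animal. Fits of footprints per RNA treated paired libraries as separate samples, except where the animal is named as a block. The p-values measure the spread between these samples. CPM is not corrected for transcript length, so levels are compared between libraries, never between genes. In bulk tissue, fewer microglia and less RNA per microglial cell cannot be told apart.

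The surface receptors are treated first. CX3CR1 is the receptor for fractalkine, a chemokine made by neurons, P2RY12 senses ADP and guides process movement, and CSF1R binds CSF1 and IL-34 and sustains microglial survival. TMEM119 is a membrane protein used to tell microglia from other macrophages. In build GRCm38.p6, Cx3cr1 (ENSMUSG00000052336) lay on chromosome 9 at 120048683-120068296 and P2ry12 (ENSMUSG00000036353) on chromosome 3 at 59216271-59262985. Tmem119 (ENSMUSG00000054675) lay on chromosome 5 at 113793729-113800396 and Csf1r (ENSMUSG00000024621) on chromosome 18 at 61105572-61131139. Over the 32 RNA-seq libraries Cx3cr1 ranged from 51.8 to 77.3 CPM with a median of 61.2, the narrowest relative range of the 9 genes at 1.49-fold. P2ry12 ranged from 22.8 to 44.5 CPM (median 33.2), Tmem119 from 20.4 to 38.8 CPM (median 27.0) and Csf1r from 99.1 to 164.5 CPM (median 131.8). All 4 were therefore detected in every library, with between 266 and 8939 counts each, and their highest library was under 2-fold above their lowest.

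The C1q genes encode the 3 chains of C1q, the recognition molecule of the classical complement pathway, which in the brain is made mainly by microglia. They lay side by side on chromosome 4, within 18.7 kb at 136880126-136898844: C1qb (ENSMUSG00000036905) at 136880126-136886200, C1qc (ENSMUSG00000036896) at 136889801-136892936 and C1qa (ENSMUSG00000036887) at 136895916-136898844. C1qa ranged from 31.2 to 55.5 CPM over the 32 RNA-seq libraries (median 37.7), C1qb from 35.9 to 72.3 CPM (median 47.6) and C1qc from 29.7 to 51.7 CPM (median 36.3). The 3 genes tracked each other closely: after the mean of each group of line, genotype and sex was removed, Pearson's r of their log2 CPM over the 32 libraries was between 0.907 and 0.921 for the 3 pairs. This is a description across libraries that share depth and base composition. Over the 29 libraries without those that stood apart it was 0.864 to 0.916, and over the 13 lysate RNA libraries, where counts were lower, 0.259 to 0.553.

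Because these genes moved together, the 250 bases upstream of the start of C1qb and C1qc are shown, from RefSeq on GRCm38.p6, both on the minus strand. Capitals mark the letters GAGGAA, or TTCCTC for the reverse strand, the core recognised by PU.1, the myeloid transcription factor encoded by Spi1. The C1qb window is chr4:136886201-136886450 and the C1qc window is chr4:136892915-136893164.
C1qb: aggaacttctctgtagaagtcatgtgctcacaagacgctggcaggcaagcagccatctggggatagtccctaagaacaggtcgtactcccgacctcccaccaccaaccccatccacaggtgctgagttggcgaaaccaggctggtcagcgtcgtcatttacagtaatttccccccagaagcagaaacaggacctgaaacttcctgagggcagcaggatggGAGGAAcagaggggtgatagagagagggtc
C1qc: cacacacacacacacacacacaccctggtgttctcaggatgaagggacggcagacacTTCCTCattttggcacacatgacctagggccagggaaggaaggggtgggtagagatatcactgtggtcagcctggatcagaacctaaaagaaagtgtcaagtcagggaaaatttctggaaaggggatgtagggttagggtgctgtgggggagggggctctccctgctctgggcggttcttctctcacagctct
The match lay 30 bases before the start of C1qb, on the strand of the gene, and 193 bases before that of C1qc, on the reverse strand. Windows of 6 members were searched: Csf1r was left out of this search, and RefSeq windows were not matched for Tmem119 and C1qa. Of these 6 members, 4 held the letters on either strand: C1qb, C1qc, Aif1 (at 7 bases) and Trem2 (at 40 bases), but not Cx3cr1 or P2ry12. For C1qc and Aif1 the window reached into the gene range given here, so distances are from the start used for the window. Of all 32851 mouse windows of this length, 7639 (23.25%) held them. A match describes these letters only.

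Aif1 encodes IBA1, the actin-binding protein widely used to stain microglia, and Trem2 encodes a lipid-sensing receptor that signals through the adaptor TYROBP. Aif1 (ENSMUSG00000024397) lay on chromosome 17 at 35170986-35176083, and Trem2 (ENSMUSG00000023992) on the same chromosome at 48346401-48352276. Aif1 was the most variable member, from 4.09 to 10.3 CPM (median 5.69, a 2.52-fold range), and Trem2 ranged from 10.2 to 16.96 CPM (median 13.8). Over all 36 pairs of members, the group-centred r ran from -0.132 to 0.921 with a median of 0.469. The 6 pairs among Cx3cr1, P2ry12, Tmem119 and Csf1r had r between 0.447 and 0.761 in RNA-seq, below the 3 C1q pairs, and the 27 remaining pairs ran from -0.132 to 0.776. Over the 29 libraries without those that stood apart, all 36 pairs ran from -0.0768 to 0.916 and the 6 pairs from 0.495 to 0.807. Over the 13 lysate RNA libraries, where counts were lower, all 36 ran from -0.833 to 0.783 and the 6 from -0.592 to 0.493. Among these 6, Cx3cr1 had r of 0.493 with P2ry12 and 0.320 with Csf1r, and P2ry12 and Csf1r had 0.349. The pairs of Tmem119, which had 49 to 115 counts there, were at -0.314 with Cx3cr1, -0.592 with P2ry12 and -0.158 with Csf1r.

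**Figure D1:**
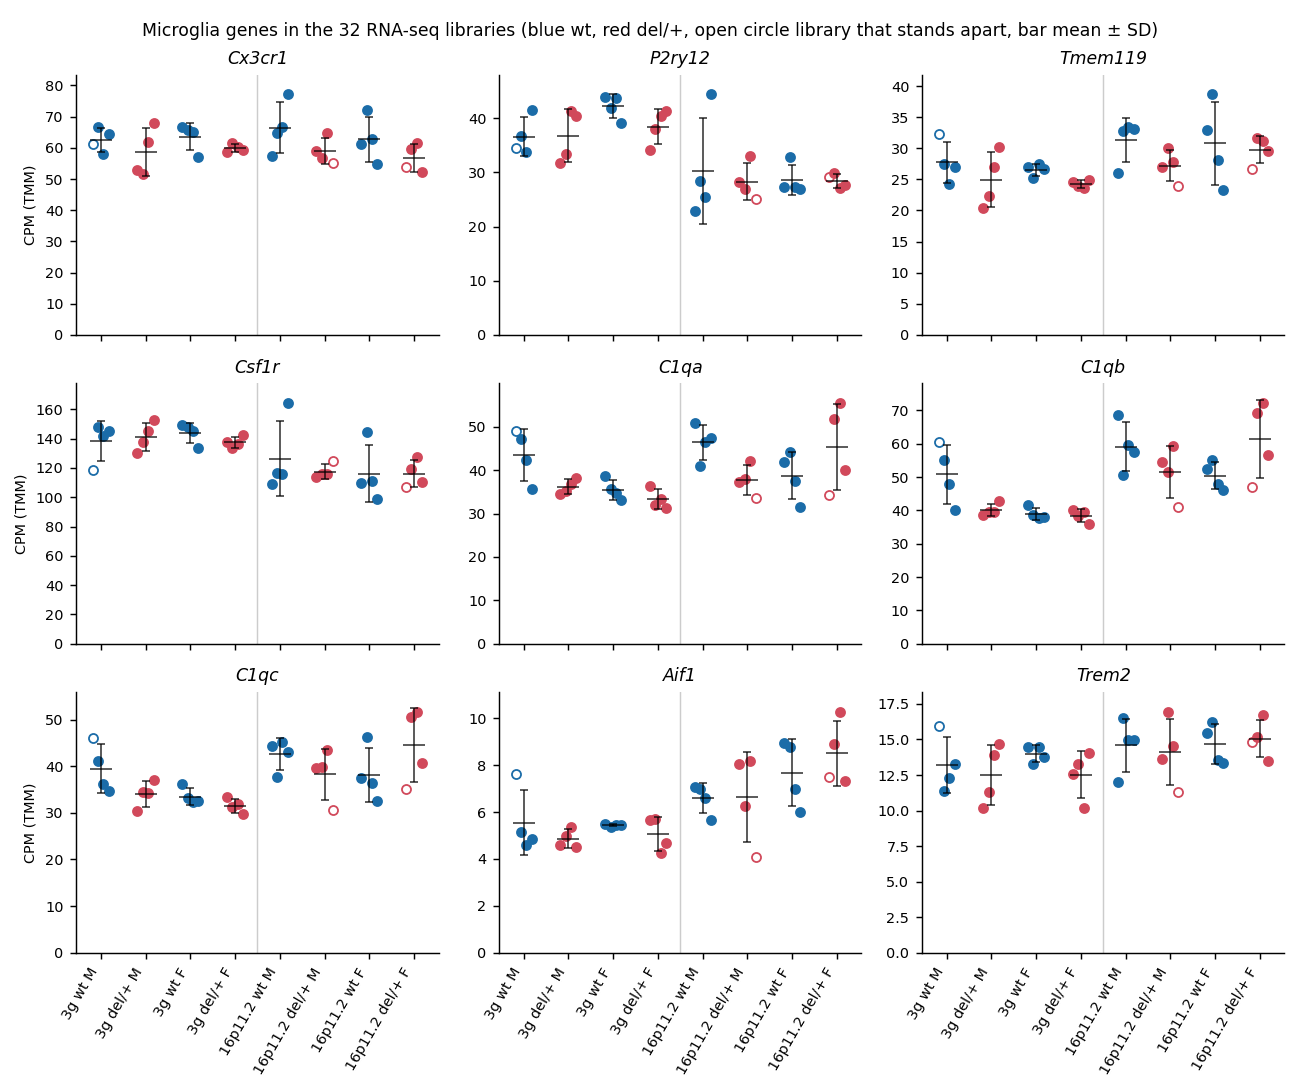
Each panel plots the TMM-normalised CPM of 1 microglia gene (vertical axis, from 0) in the 32 RNA-seq libraries by line, genotype and sex (horizontal axis), with 4 libraries a group, blue for wt, red for del/+, open circles for the libraries that stood apart, and bars for the group mean and SD. P2ry12 sits higher in the 3g line than in the 16p11.2 line, C1qb and Aif1 sit lower, and wt and del/+ overlap in nearly every group.

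The genes outside the members with the most similar pattern were taken by the same group-centred r, here with the mean log2 CPM of the 9 members over the 32 libraries. The first was Suclg2 (r = 0.898), then Ppp1r9b (0.869), Plpp3 (0.865), Akt1 (0.865), Dlg1 (0.864), Rpl10 (0.861), Asrgl1 (0.861), Axl (0.854), Dusp8 (0.853) and mt-Cytb (0.852). Of these 10 only Axl was on a list of microglial pathways, that of phagocytosis. Over the 29 libraries without those that stood apart their r ran from 0.793 for mt-Cytb to 0.890 for Suclg2. Over the 13 lysate RNA libraries it ran from -0.756 for Suclg2 to 0.536 for Asrgl1, below the RNA-seq values for each of the 10.

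Whether the mutation of Taok2, Sez6l2 and Mvp went along with different microglia gene levels was asked within each sex of the 3g line. In 3g males the C1q genes stood out among the members. C1qa read 48.93, 47.18, 42.22 and 35.55 CPM in the wt libraries and 34.51, 35.29, 36.8 and 38.21 CPM in 3g del/+. C1qb read 60.57, 55.0, 47.99 and 40.08 CPM in wt and 38.58, 39.59, 39.67 and 42.69 CPM in del/+. For both genes 3 of the 4 wt libraries lay above all del/+ libraries and the lowest wt library lay among them, so the groups overlapped. C1qc read 46.05, 41.17, 36.23 and 34.62 CPM in wt and 30.37, 34.58, 34.29 and 36.97 CPM in del/+, with 2 wt libraries above all del/+ libraries.

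The log2 difference of C1qb in 3g males was -0.31 (SE 0.11, unadjusted p = 0.018, adjusted p = 0.974, edgeR). That of C1qa was -0.24 (SE 0.10, unadjusted p = 0.0334, adjusted p = 0.974, edgeR) and that of C1qc -0.19 (SE 0.09). None of the 9 members was called by edgeR or DESeq2 in 3g males, where 0% of the 19081 genes tested were called. At an unadjusted p under 0.05, 2 of the 9 members stood, beside 1.44% of all genes. They were C1qa and C1qb, which tracked each other across libraries and so are not separate observations. The median log2 difference of the 9 was -0.12 and that of all genes 0.00, with 7 of 9 below 0. The highest wt library for all 3 C1q genes, and for Aif1 at 7.61 CPM and Trem2 at 15.92 CPM, was the library labelled 3g wt male 17. Without it the log2 differences were -0.19 for C1qa, -0.23 for C1qb and -0.11 for C1qc. That of Aif1 went from -0.16 to 0.01 and that of Trem2 from -0.04 to 0.06, so neither direction held.

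In 3g females all 9 members had a log2 difference below 0, with a median of -0.09. None was called by edgeR or DESeq2, against 0.00526% of 19024 genes, and 1 had an unadjusted p under 0.05, where 11.03% of all genes did. That gene was Tmem119, which read 26.96, 25.2, 27.43 and 26.74 CPM in wt and 24.6, 23.92, 23.63 and 24.96 CPM in 3g del/+. All 4 del/+ females lay below all 4 wt females, and the log2 difference was -0.12 (SE 0.04, unadjusted p = 0.0146, adjusted p = 0.353, edgeR). It was the only case among the 9 members and the 4 groups of line and sex in which wt and del/+ RNA-seq libraries did not overlap. Non-overlap was seen for 5.08% of genes in 3g females, 1.94% in 3g males, 2.85% in 16p11.2 females and 3.82% in 16p11.2 males. C1qb, which had the largest difference in males, read 41.7, 38.58, 37.77 and 37.95 CPM in wt females and 40.21, 38.37, 39.4 and 35.92 CPM in del/+ females, a log2 difference of -0.01 (SE 0.05).

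With both sexes in 1 fit, all 9 members of the 3g line again lay below 0 (median -0.12). The 3 C1q genes had an unadjusted p under 0.05 in edgeR, with log2 differences of -0.16 for C1qa (SE 0.06), -0.17 for C1qb (SE 0.07) and -0.13 for C1qc (SE 0.06), each with an adjusted p of 0.863. Without the library labelled 3g wt male 17 they were -0.14, -0.12 and -0.10. No member was called by edgeR or DESeq2, beside 0.00504% of 19830 genes, and 5.71% of all genes had an unadjusted p under 0.05. The 3 C1q genes tracked each other across libraries, so they are not separate observations. The sex difference of the genotype effect was tested as an interaction, and again no member was called by either tool, with 0% of genes called. C1qb alone had an unadjusted p under 0.05 there: its male effect minus its female effect was -0.31 (SE 0.13, unadjusted p = 0.0296, adjusted p = 0.901, edgeR), or -0.22 without the library labelled 3g wt male 17.

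In the 16p11.2 line the C1q estimates lay below 0 in males and above 0 in females, none of them called, and neither was the interaction of genotype and sex. In males C1qa read 50.89, 41.05, 46.37 and 47.37 CPM in wt and 37.34, 37.84, 42.11 and 33.64 CPM in 16p11.2 del/+, so 1 del/+ library lay within the wt range. The log2 difference was -0.29 (SE 0.10, unadjusted p = 0.0169, adjusted p = 0.742, edgeR). C1qb read 68.57, 50.67, 59.64 and 57.57 CPM in wt males and 54.44, 51.59, 59.19 and 40.93 CPM in del/+ males, a log2 difference of -0.19 (SE 0.13) with groups that overlapped. C1qc had a log2 difference of -0.15 (SE 0.12). The lowest library for all 3 was the library labelled 16p11.2 del/+ male 4. Without it C1qa was at -0.24, C1qb at -0.10 and C1qc at -0.06, and Aif1 went from 0.02 to 0.19. P2ry12 and Csf1r turned on another library, wt male 4, which read 44.52 CPM for P2ry12 where the other wt males read 22.83, 28.37 and 25.38 CPM. Without it the log2 difference of P2ry12 went from -0.09 to 0.16 and that of Csf1r from -0.10 to 0.06.

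No member was called in 16p11.2 males by edgeR or DESeq2, beside 0.106% of 17957 genes. In edgeR 1 of 9 had an unadjusted p under 0.05, beside 5.82% of all genes, and 8 of 9 log2 differences lay below 0 (median -0.15).

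In 16p11.2 females C1qb read 52.51, 55.01, 48.02 and 46.2 CPM in wt and 47.13, 69.33, 72.32 and 56.53 CPM in del/+. C1qc read 37.48, 46.35, 36.32 and 32.6 CPM in wt and 35.12, 50.66, 51.73 and 40.72 CPM in del/+. C1qa read 41.75, 44.14, 37.46 and 31.61 CPM in wt and 34.16, 51.69, 55.51 and 40.05 CPM in del/+. For each gene 2 or 3 of the del/+ libraries lay above all wt libraries, and the library labelled 16p11.2 del/+ female 1 was the lowest of its group. The log2 difference of C1qb was 0.28 (SE 0.12, unadjusted p = 0.0393, adjusted p = 0.998, edgeR), and those of C1qa and C1qc were 0.23 (SE 0.15) and 0.22 (SE 0.14). Without del/+ female 1 they were 0.39 for C1qb (unadjusted p = 0.0020, adjusted p = 0.474, edgeR), 0.34 for C1qa and 0.32 for C1qc. Without del/+ female 3 they were at their lowest, at 0.20 for C1qb, 0.12 for C1qa and 0.15 for C1qc, so their size turned on single libraries. No member was called by edgeR or DESeq2 with all libraries, beside 0.144% of 18067 genes. In edgeR 1 of 9 had an unadjusted p under 0.05, beside 4.47% of all genes.

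The interaction of genotype and sex in the 16p11.2 line lay below 0 for all 9 members, with a median of -0.14. It was -0.52 for C1qa (SE 0.19, unadjusted p = 0.0156, edgeR), -0.48 for C1qb (SE 0.19, unadjusted p = 0.0221, edgeR) and -0.37 for C1qc (SE 0.19). Without the libraries labelled del/+ male 4 and del/+ female 1 the 3 values were -0.59, -0.49 and -0.38. The adjusted p was 0.835 for each, no member was called by edgeR or DESeq2, and 0% of 18870 genes were called, with 4.34% at an unadjusted p under 0.05. Over both sexes the C1q differences in edgeR were -0.03, 0.05 and 0.04 for C1qa, C1qb and C1qc, and 0.05, 0.14 and 0.13 without those libraries. There the gene with an unadjusted p under 0.05 was Cx3cr1, at -0.16 (SE 0.07, unadjusted p = 0.045, adjusted p = 0.753, edgeR) and -0.13 without them, and again no member was called by either tool, beside 0.175% of genes. Cx3cr1 read 54.79 to 77.33 CPM in the 8 wt libraries (median 63.7), and its wt and del/+ ranges overlapped in each sex.

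Whether the genotype effect itself differed between lines was tested over all 32 RNA-seq libraries. The 3g effect minus the 16p11.2 effect had a median of -0.10 over the 9 members, and lay furthest from 0 for C1qb, Aif1 and C1qc at -0.21 (SE 0.12), -0.21 (SE 0.18) and -0.17 (SE 0.12), or -0.27, -0.24 and -0.23 without the 3 libraries that stood apart. No member was called by edgeR or DESeq2 and none had an unadjusted p under 0.05 in edgeR, where 4.12% of all genes did and 0.123% of 20342 genes were called.

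**Figure D2:**
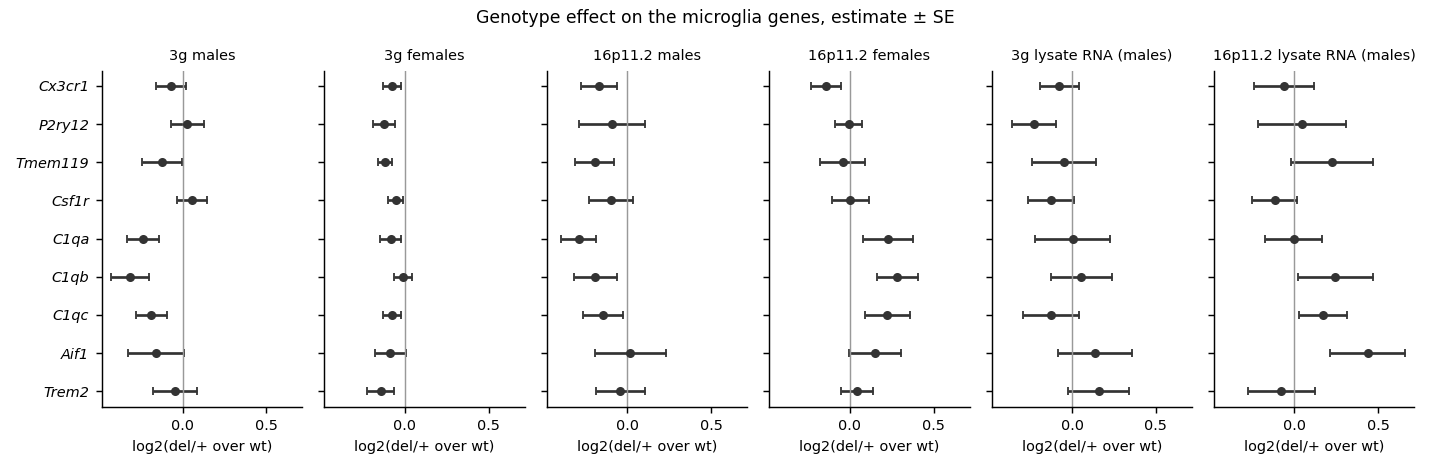
Points are the log2 differences of del/+ over wt (horizontal axis) for the 9 microglia genes (vertical axis) and bars their SE, in 4 RNA-seq comparisons of 4 and 4 libraries and in the lysate RNA of males of each line. The C1q genes lie left of 0 in males of both lines and right of 0 in 16p11.2 females, all with an adjusted p over 0.05, and lysate RNA of males has C1qa at 0.00 in both lines.

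The lysate RNA of males gave a second measure of the male genotype effect, from libraries made in a separate experiment. In the 3g line C1qa had a log2 difference of 0.00 (SE 0.22), C1qb of 0.05 (SE 0.18) and C1qc of -0.13 (SE 0.17). With each animal left out in turn these ran from -0.27 to 0.24 for C1qa, from -0.13 to 0.17 for C1qb and from -0.25 to -0.02 for C1qc, so for C1qa and C1qb the direction turned on single animals. The member furthest from 0 was P2ry12 at -0.23 (SE 0.13), which ran from -0.34 to -0.11, and the median of the 9 was -0.05. In the 16p11.2 line C1qa was at 0.00 (SE 0.17), C1qb at 0.24 (SE 0.23) and C1qc at 0.17 (SE 0.14), with ranges of -0.09 to 0.12, 0.07 to 0.46 and 0.08 to 0.21 when each animal was left out. Furthest from 0 there was Aif1 at 0.44 (SE 0.22, unadjusted p = 0.0735, adjusted p = 0.990, edgeR), with a range of 0.22 to 0.63. With all animals none of the 9 members was called or had an unadjusted p under 0.05 in edgeR in either line, and DESeq2 called none. All genes were called at 0.0209% in the 3g line and 0.133% in the 16p11.2 line, with 4.92% and 4.41% at an unadjusted p under 0.05.

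Footprints, the fragments of mRNA that ribosomes protect, were few for these genes. Csf1r had 15 to 73 footprint counts in the 13 libraries, C1qb 4 to 35, C1qa 6 to 30, Cx3cr1 1 to 27, P2ry12 6 to 25, C1qc 2 to 16, Tmem119 1 to 12 and Trem2 1 to 8. Aif1 had 0 to 4, and a count of 0 allows up to 3 counts. In the 3g line 6 members passed the filter on low counts and in the 16p11.2 line 3 passed (P2ry12, Csf1r and C1qa). The largest differences in edgeR were -0.51 (SE 0.40) for P2ry12 in the 3g line, and 0.60 (SE 0.41) for C1qa and -0.57 (SE 0.29) for Csf1r in the 16p11.2 line. Csf1r had 26, 35, 37 and 61 footprint counts in 16p11.2 wt and 15, 15 and 31 in del/+, in libraries of different totals. No member tested was called or had an unadjusted p under 0.05 in edgeR in either line. Of all genes tested, 0.0132% were called in the 3g line and 0.117% in the 16p11.2 line, with 7.97% and 6.15% at an unadjusted p under 0.05. DESeq2 called none and gave the members no adjusted p here.

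Genotype effects on footprints per RNA, the log2 ratio of footprints to lysate RNA, were fitted as an interaction over both kinds of library. Of the 9 members 0 were called by edgeR in either line, where 0% of 15137 genes in the 3g line and 0.00664% of 15071 genes in the 16p11.2 line were called. DESeq2 called none and gave the members of the 3g line no adjusted p. In the 3g line none had an unadjusted p under 0.05 in edgeR, and in the 16p11.2 line 1 did, beside 7.67% and 6.24% of all genes. That gene was Cx3cr1, with 1, 1 and 5 footprint counts in 16p11.2 del/+ males and 5, 6, 10 and 17 in wt males. Its footprint to lysate RNA ratios of CPM were 0.169, 0.158 and 0.555 in del/+ and 0.767, 0.724, 1.04 and 1.22 in wt, so every del/+ animal lay below every wt animal, on few counts. It was the only member whose groups did not overlap in this ratio in the 16p11.2 line, where 5.76% of 14543 genes did not, and in the 3g line 0 of 9 members and 11.8% of 14718 genes did not. The log2 difference was -1.67 (SE 0.66, unadjusted p = 0.0181, adjusted p = 0.764, edgeR). In 3g del/+ males the ratio of Cx3cr1 was 1.39, 0.903 and 1.59, against 0.676, 1.05 and 1.06 in wt, a log2 difference of 0.40 (SE 0.36). With the animal as a block for its paired libraries no member was called in either line, while the calls over all genes went from 0 to 10 in the 3g line and from 1 to 10 in the 16p11.2 line.

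Differences between the lines were asked of wt mice alone, with 8 RNA-seq libraries a line. P2ry12 and Csf1r were higher in the 3g line, whereas C1qb and Aif1 were lower, and these 4 of 9 members were called by edgeR and by DESeq2. In this comparison 61.6% of 19739 genes were called, so the members' share was below that of all genes. P2ry12 ranged from 33.7 to 43.9 CPM (median 40.4) in 3g wt mice and from 22.8 to 44.5 CPM (median 27.4) in 16p11.2 wt mice. Of the 8 libraries of 16p11.2 wt mice 7 lay below every 3g library, and wt male 4, at 44.52 CPM, lay above them all. The log2 difference was 0.42 (SE 0.11, adjusted p = 0.0040, edgeR).

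Csf1r ranged from 118.3 to 149.1 CPM (median 145) in 3g wt mice and from 99.1 to 164.5 CPM (median 113.4) in 16p11.2 wt mice. Its log2 difference of 0.22 (SE 0.09) had an adjusted p of 0.0496 in edgeR and lost the call when any of 12 of the 16 libraries was left out, with an adjusted p of up to 0.105. C1qb ranged from 37.8 to 60.6 CPM (median 40.9) in 3g wt and from 46.2 to 68.6 CPM (median 53.8) in 16p11.2 wt. Its log2 difference was -0.29 (SE 0.08, adjusted p = 0.0045, edgeR), and the 3g libraries above the lowest 16p11.2 library were all males. Aif1 ranged from 4.58 to 7.61 CPM (median 5.41) in 3g wt and from 5.68 to 8.97 CPM (median 6.98) in 16p11.2 wt, a log2 difference of -0.37 (SE 0.11, adjusted p = 0.0080, edgeR). Here 7 of the 8 3g libraries lay below every 16p11.2 library, and the exception was the library labelled 3g wt male 17.

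The other 5 members were not called: Tmem119 had a log2 difference of -0.19 (adjusted p = 0.081, edgeR), C1qc -0.15 (adjusted p = 0.102, edgeR), C1qa -0.11, Trem2 -0.10 and Cx3cr1 -0.03. Without the library labelled 3g wt male 17, 6 members were called, beside 66.8% of 20048 genes, with Tmem119 at -0.23 and C1qc at -0.18 added, C1qb at -0.34, Aif1 at -0.46, P2ry12 at 0.44 and Csf1r at 0.26. The summed CPM of the 9 members ranged from 379.5 to 438.7 (median 406.4) in 3g wt and from 334.0 to 488.1 (median 396.5) in 16p11.2 wt. The ranges of the sum overlapped, as did those of each of the 9 members, and the sum was not tested.

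**Figure D3:**
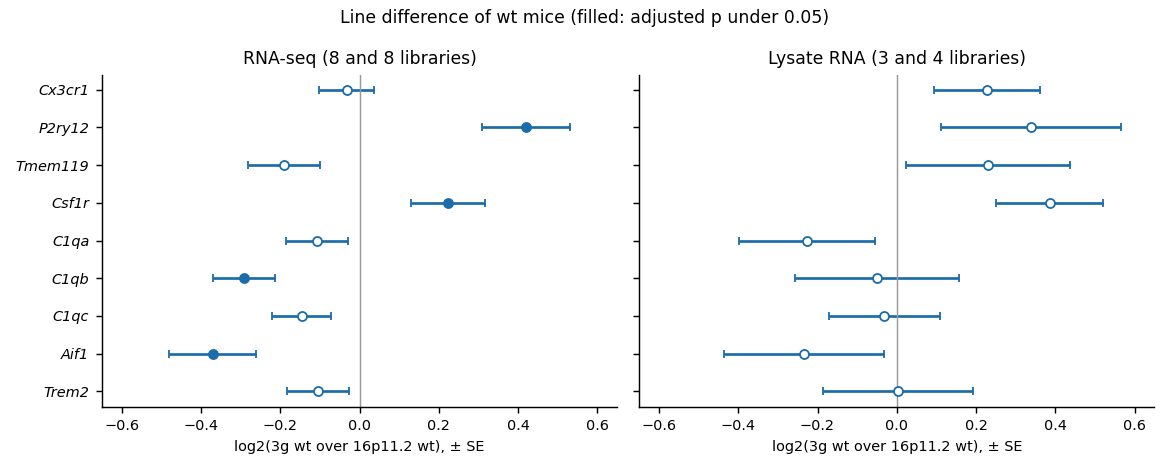
Points are log2 differences of 3g wt over 16p11.2 wt mice (horizontal axis) for each of the 9 microglia genes (vertical axis), with SE bars, in RNA-seq and in lysate RNA, and filled points have an adjusted p under 0.05. P2ry12 at 0.42 and Csf1r at 0.22 lie to the right and C1qb at -0.29 and Aif1 at -0.37 to the left in RNA-seq, and no point is filled in lysate RNA.

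Markers of other cells differed between the lines as well, where 61.6% of all 19739 genes were called. Calls for most genes of a list are thus not particular to these cell types. All 4 cortical neuron markers were lower in 3g wt mice, with a summed level of 33.4 to 872.9 CPM against 712.1 to 1262 CPM, and so were 5 of 6 oligodendrocyte markers (4055 to 10880 against 8495 to 13050 CPM) and 4 of 6 astrocyte markers (3467 to 4122 against 3976 to 5590 CPM). Of 5 endothelial markers 4 were higher (91.1 to 165.9 against 74.9 to 189.2 CPM). The library labelled 3g wt male 17 set 1 end of each of these 4 ranges in 3g mice. Without it they were 33.4 to 550.1 CPM for cortical neurons, 4055 to 7430 CPM for oligodendrocytes, 3467 to 3853 CPM for astrocytes and 151.3 to 165.9 CPM for endothelium. Of 7 markers of border macrophages Mrc1 alone was higher, and their sum was 13.8 to 19.2 CPM in the 3g line and 14.0 to 20.2 CPM in the 16p11.2 line. The 5 markers of blood monocytes and neutrophils, of which 1 could be tested and was not called, summed to 0.186 to 1.51 CPM in wt libraries. Of 7 striatal projection neuron markers 1 was higher and 1 lower, of 5 choroid plexus markers Kl was higher, and of 5 red blood cell markers none was called. The part of these differences in the microglia gene results was not tested.

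Other genes that work with the members were taken from lists by function and described in the same wt comparison. Of 9 complement genes 4 were higher in the 3g line and none lower, led by C4b, the complement component cleaved downstream of C1q, at 0.75 (SE 0.14) and Serping1, the inhibitor of the C1 complex, at 0.45 (SE 0.11). Of 11 microglia identity genes 2 were higher and 1 lower, led by Sall1, a transcription factor that maintains microglial identity, at 0.33 (SE 0.06). Of 7 genes for CSF1R ligands and myeloid transcription factors 1 was higher and 4 lower. Of 6 TREM2 signalling genes 2 were higher and 2 lower, with Tyrobp, the adaptor of TREM2, at -0.43 (SE 0.10), where Trem2 itself was at -0.10. Cx3cl1, which encodes fractalkine, was lower at -0.28 (SE 0.06), where its receptor gene Cx3cr1 was at -0.03. Of 9 phagocytosis and lysosome genes 1 was higher and 3 lower, led by Ctsd, a lysosomal protease, at -0.37 (SE 0.08). Of 7 interferon response genes 1 was higher and 2 lower, and of 15 genes of activated microglia, 9 of which could be tested, 3 were higher and 2 lower. The median log2 difference ran from -0.28 for the lone fractalkine gene to 0.40 for complement, beside 0.00 for all genes, in a comparison where most genes were called. Without the library labelled 3g wt male 17 the differences were 0.80 for C4b, 0.49 for Serping1, 0.36 for Sall1, -0.51 for Tyrobp, -0.32 for Cx3cl1 and -0.45 for Ctsd, each called and in the same direction. Of all 65 genes on the 8 lists none was called by edgeR or DESeq2 for genotype in RNA-seq, beside 0% to 0.175% of all genes in edgeR. There 56 to 59 were tested and 1 to 9 had an unadjusted p under 0.05 in edgeR, beside 1.44% to 11.03% of all genes. The 9 were of 59 tested in 3g females, where the share of all genes was 11.03%. Likewise none was called for genotype in lysate RNA, footprints or footprints per RNA, beside 0% to 0.133% of all genes in edgeR. Here 18 to 54 were tested and 0 to 5 had such a p, beside 4.41% to 7.97% of all genes.

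In lysate RNA of wt males the line difference had the same direction as in RNA-seq of both sexes for each member called there. It was 0.34 (SE 0.23) for P2ry12 and 0.39 (SE 0.13, unadjusted p = 0.0135, adjusted p = 0.335, edgeR) for Csf1r. For Aif1 it was -0.23 (SE 0.20), and for C1qb, at -0.05 (SE 0.21), it lay near 0. P2ry12 read 30.4 to 38.0 CPM in 3 animals of the 3g line and 14.0 to 35.4 CPM in 4 of the 16p11.2 line. None of the 9 was called by edgeR or DESeq2, where 0.0139% of 14417 genes were called, and 1 had an unadjusted p under 0.05, beside 10.8% of all genes. Of the listed pathway genes 53 were tested there and none was called by either tool, with 9 at an unadjusted p under 0.05 in edgeR. In footprints 6 members passed the filter and all 6 lay above 0 in edgeR, from 0.03 for C1qc (SE 0.46) to 0.34 for P2ry12 (SE 0.42). None of these was called or had an unadjusted p under 0.05, where 0.241% of 6633 genes were called and 10.5% had such a p, and DESeq2 called none and gave them no adjusted p.

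The last question was how many footprints each gene had per lysate RNA of the same animals. In wt mice of both lines Csf1r and the 3 C1q genes were above the typical gene, whereas Cx3cr1, P2ry12 and Aif1 were not. The ratio of footprint CPM to lysate RNA CPM for Csf1r was 3.78, 4.98 and 3.04 in 3g wt and 3.72, 5.49, 4.48 and 6.21 in 16p11.2 wt, above 3 in every wt animal. That of C1qa was 3.88, 6.99 and 4.51 in 3g wt and 2.83, 4.08, 3.47 and 3.77 in 16p11.2 wt. For C1qb the ratio was 3.81, 4.17 and 2.51 in 3g wt and 2.72, 3.62, 3.21 and 2.29 in 16p11.2 wt, and for C1qc 4.12, 4.48 and 1.39, and 1.55, 5.14, 3.79 and 2.26. All of these wt ratios lay above 1, with C1qc the most scattered.

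In the 3g line the fitted log2 ratios were 1.59 for Csf1r (SE 0.25), 1.97 for C1qa (SE 0.32), 1.35 for C1qb (SE 0.32) and 1.28 for C1qc (SE 0.36), with adjusted p of 0.000204, 0.000284, 0.00367 and 0.0109 in edgeR. In the 16p11.2 line they were 1.94 (SE 0.18), 1.48 (SE 0.29), 1.21 (SE 0.35) and 1.27 (SE 0.31) in the same order, with adjusted p of 2.83e-08, 0.000298, 0.00802 and 0.00196 in edgeR. These 4 of 9 members were called in each line, beside 44.3% of 13963 genes in the 3g line and 46.6% of 13682 genes in the 16p11.2 line. The members' share was thus near that of all genes. All 4 calls were upward, as were 20.6% of all genes in the 3g line and 21.4% in the 16p11.2 line. The median of the 9 members was 1.01 in the 3g line and 1.02 in the 16p11.2 line, beside -0.01 and -0.03 for all genes.

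Tmem119 had a log2 ratio of 1.01 in the 3g line (adjusted p = 0.061, edgeR) and 1.02 in the 16p11.2 line (adjusted p = 0.055, edgeR), and DESeq2 called it in both (adjusted p of 0.0194 and 0.0185). Trem2 was at 0.83 and 0.78 and was not called. Below 0 in both lines, and not called, were Cx3cr1 at -0.50 and -0.38, P2ry12 at -0.39 and -0.32 and Aif1 at -0.55 and -0.81. Over the 13 animals of both genotypes the ratio ran from 2.34 to 6.21 for Csf1r and from 2.62 to 9.79 for C1qa, the 2 members above 2 in every animal. It ran from 1.39 to 7.33 for C1qb, 0.794 to 5.14 for C1qc, 0.753 to 4.27 for Tmem119, 0.597 to 3.59 for Trem2, 0.549 to 1.42 for P2ry12, 0.158 to 1.59 for Cx3cr1 and 0 to 1.76 for Aif1. Calls for C1qb and C1qc in the 3g line rested on single animals, whereas Csf1r and C1qa kept theirs with any wt animal left out. Without the wt animal of highest C1qa ratio (6.99), C1qb and C1qc were not called (adjusted p of 0.055 and 0.171, edgeR), and without the wt animal at 3.88, C1qc was not (adjusted p of 0.105, edgeR).

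**Figure D4:**
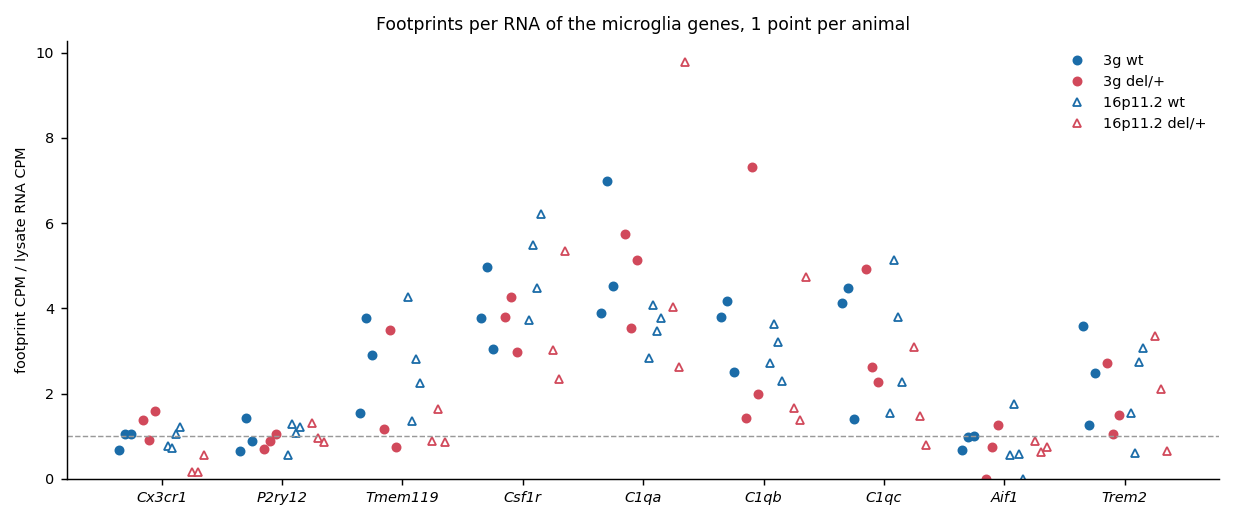
Each point is 1 animal's ratio of footprint CPM to lysate RNA CPM (vertical axis) for a microglia gene (horizontal axis), with circles for the 3g line, triangles for the 16p11.2 line, blue for wt, red for del/+ and a dashed line at 1. Csf1r and C1qa lie above 2 in all 13 animals, whereas P2ry12 and Aif1 scatter around or under 1.

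The same comparison is given for the genes that work with the members, beside the shares of all genes called upward, 20.6% and 21.4%. Of 9 phagocytosis and lysosome genes 5 were called above the typical gene in the 3g line and 4 in the 16p11.2 line, of 7 complement genes tested 4 and 4, of 6 TREM2 signalling genes 3 and 2, and of 7 CSF1R ligand and transcription factor genes 2 and 3, with none below. Tgfbr1, of the microglia identity list, was below in the 3g line at -1.04 (SE 0.28). Cx3cl1 was above at 1.18 and 1.05, and 1 of 5 and 2 of 5 genes of activated microglia and 1 of 3 and 2 of 4 interferon genes were above. The leading genes of the 3g line, taken by p in edgeR, were Gpnmb at 7.74, Irf8 at 5.59, Apoe, the main brain lipid carrier, at 2.59, Lgmn at 2.23, Grn at 1.94 and Ctsd at 1.65. C2, at 3.39, was larger than Apoe but ranked lower by p. What lies behind ratios as large as those of Gpnmb and Irf8 was not tested. In the 16p11.2 line those reported were Gpnmb at 7.35, Irf8 at 4.89, C2, a complement protease, at 3.67, Apoe at 2.19 and Ctsd at 1.79.

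The level of each gene in lysate RNA relative to RNA-seq differed between the members. This ratio and footprints over lysate RNA share the lysate level, so a low lysate level lowers the one and raises the other by construction. Medians over wt males (8 RNA-seq, 7 lysate RNA and 7 footprint libraries) were compared without a test. The members are set beside 10387 of 18350 genes, those with medians of at least 5 CPM in RNA-seq, 2 in lysate RNA and 5 in footprints. This floor leaves out genes of low footprint level, so the medians below are not those of all genes. Aif1, at 2.92 footprint CPM, was under it. Lysate RNA over RNA-seq was 0.154 for Csf1r, 0.142 for C1qa, 0.114 for C1qb, 0.177 for C1qc and 0.173 for Tmem119, beside a median of 0.537 over 10387 genes. It was 0.316 for Trem2, 0.356 for Cx3cr1, 0.709 for Aif1 and 0.934 for P2ry12. Footprints over lysate RNA were 4.02 for Csf1r, 4.33 for C1qa, 3.45 for C1qb, 3.57 for C1qc, 2.57 for Tmem119 and 2.47 for Trem2. The median over the same 10387 genes was 1.24. Cx3cr1 was at 0.946, P2ry12 at 0.899 and Aif1 at 0.672.

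Against RNA-seq instead, footprints were 0.619 for Csf1r, 0.613 for C1qa, 0.393 for C1qb and 0.632 for C1qc, all below the median of 0.670 over the same genes. Only P2ry12 at 0.840 and Trem2 at 0.782 were above it, and Tmem119 was at 0.443, Aif1 at 0.476 and Cx3cr1 at 0.337. The order of the members by footprints therefore depended on which RNA library they were set against. How the lysate RNA and the RNA-seq libraries differed in preparation was not tested.

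**Figure D5:**
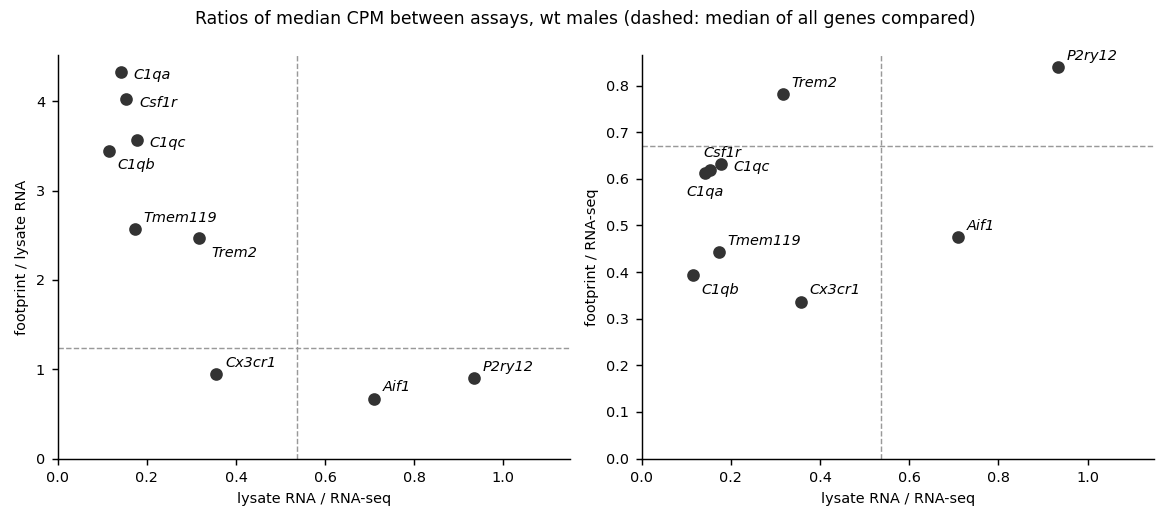
Each point is a microglia gene, placed by the ratio of its median CPM in lysate RNA to that in RNA-seq (horizontal axis) and by its median footprint CPM over lysate RNA (left) or over RNA-seq (right, vertical axes), in wt males, with dashed lines at the medians over 10387 genes. On the left Csf1r and the C1q genes sit high, at 3.45 to 4.33, and far left, at 0.114 to 0.177, and on the right they sit below the dashed median.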

How the data were processed

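RNA-seq of dissected striatum and, in males, ribosome footprints and RNA of the same lysates were analysed from 6 tables of raw read counts per gene, as the authors deposited them, with 1 column per library and replicates not pooled. The submitters' processing notes name HTSeq and build mm10 with the RNA-seq, and Bowtie2 and build mm39 with the footprint and lysate libraries. The study's methods describe a stranded total RNA kit with ribosomal RNA removal and the bcbio-nextgen pipeline for RNA-seq, whereas the labels give polyA RNA. Counting options are not given in the sources used here. No column of the tables was left unused.

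Groups came from the labels. The tables of both lines were merged by gene for each assay, and CPM was TMM-normalised over all libraries of the assay. Genes were kept by filterByExpr (a minimum count of 10 and a minimum total of 15) in the libraries of each fit and tested by edgeR 4.0.16 (glmQLFit and glmQLFTest, R 4.3.3, limma 3.58.1), with p-values adjusted by the method of Benjamini and Hochberg over all genes of the fit. Males and females of each line were fitted alone and together, the latter with an interaction of genotype and sex, and wt mice of both lines together with sex as a covariate in RNA-seq. Footprints per RNA were fitted over both kinds of library, where a ratio of 0 on the log2 scale is that of the TMM reference, and the genotype effect was the interaction. Footprint and lysate libraries of 1 animal carry the same animal number in the labels, and the fit with the animal as a block was an alternative.

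The scripts were tested on simulated counts. Alternatives were DESeq2 1.42.0, its normalisation in edgeR (RLE), no filter on low counts, each library left out, the libraries that stood apart left out, the replicate block and 1 fit per line. Total counts in place of TMM and a filter on the footprint libraries alone were added after seeing the data. The members and the gene lists were chosen with earlier results of these data known. Named outside the members were the called genes of the pathway lists, at most 6 a comparison by p, and the 10 genes of most similar pattern, with exceptions named because a result turned on them. The footprint result of 1 listed gene and the count that includes it are not reported here. Gene positions are those of RefSeq on GRCm38.p6 and were joined by symbol. Intervals between replicates cover these libraries only, and footprint counts under about 10 leave a ratio imprecise.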

Additional observations from a re-analysis of the deposited data

Results flagged for a closer look

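Of 90 sets of 4 libraries or more examined, 4 held a library that lay far from the others of its group by Dixon's criterion, which chance alone meets in about 1 set in 20. Cx3cr1 read 57.11 CPM in 3g wt female 39, below the other 3 wt females at 64.98 to 66.6 CPM. P2ry12 read 32.83 CPM in 16p11.2 wt female 2, above the other 3 at 27.03 to 27.35 CPM. Tmem119 read 25.96 CPM in 16p11.2 wt male 1, below the other 3 at 32.75 to 33.36 CPM. Csf1r read 164.5 CPM in 16p11.2 wt male 4, above the other 3 at 109.1 to 116.3 CPM, and the same library was the highest of its group for P2ry12 and Cx3cr1.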

How the results depend on the processing

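The number of members called was the same, or within 1.5 times, in 286 recomputations, and the 3 others all concerned footprints per RNA in wt mice. A filter on the footprint libraries alone tests fewer members. With it 2 members were called in the 3g line and 1 in the 16p11.2 line, where the main fits called 4 each. Of all genes under that filter, 3091 of 4790 were called in the 3g line and 3168 of 4650 in the 16p11.2 line. DESeq2 called 5 members in each line, beside 6615 of 13963 and 6702 of 13682 genes. With 1 wt animal of the 3g line left out, 2 to 4 members were called, the lowest without the animal of highest C1qa ratio. Recomputed for each called gene, the call was kept 136 times and lost 15 times, 12 of them for Csf1r between lines, 2 for C1qc and 1 for C1qb, and none changed sign. Total counts in place of TMM moved the median log2 ratio of all genes to 0.61 in the 3g line and 0.20 in the 16p11.2 line. Then 6 and 5 members were called, beside 6725 of 13963 and 5998 of 13682 genes. Replicate numbers shared by the 16p11.2 RNA-seq groups did not pair the libraries: same-numbered libraries had r of -0.212 to 0.110, and 1 of 4 females and 0 of 4 males matched its own number best. With the replicate number as a block the members called stayed at 0 in males, females and both, and all genes called went from 19 to 14, from 26 to 22 and from 33 to 27. The animal block left 4 members called in each line for footprints per RNA, beside 5352 of 13963 and 6309 of 13682 genes. Over all genes DESeq2 called 117 in 3g females where edgeR called 1, and edgeR without a filter 158. Depth limited the footprints, where 6 and 3 of the 9 members could be tested for genotype.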
